A study of Mus musculus with 2 samples.

Results

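Leukocytes were examined that carried a transcript of monocytes, neutrophils or myeloid progenitors in brain cells of mouse embryos at E12.5. Cells were enriched with CD31 microbeads for endothelial cells and profiled on the NovelCyto system, a microwell method whose barcoded beads capture 3′ ends and label the captured molecules with unique molecular identifiers (UMIs). There was 1 library from Foxq1flox/flox brain, in which the Foxq1 gene carries loxP sites, and 1 from Foxq1iECKO brain, the knockout group. The sources used here name neither the Cre line, the age at induction nor the number of embryos behind a library. The gate took cells with at least 1000 UMIs, at least 500 genes and at most 20% mitochondrial UMIs. It then asked for UMIs of at least 2 of the leukocyte genes Ptprc, Coro1a, Laptm5, Cd52 and Spi1, and of at least 1 of Ly6c2, Ccr2, S100a8, S100a9, Mpo and Elane. At most 1 of the macrophage genes C1qa, C1qb and C1qc was allowed, and at most 1 of the endothelial genes Pecam1, Cdh5, Kdr, Flt1, Tek and Tie1. The gate held 492 of 27041 cells that passed the quality filter, 258 of 13933 in the Foxq1flox/flox library and 234 of 13108 in the Foxq1iECKO library.

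With 1 library per genotype no difference has a replicate check, and no test between genotypes was possible. Intervals are exact 95% intervals of counts (binomial for shares, Poisson for levels, conditional binomial for ratios) and cover counting error only. Levels are counts per 1000000 UMIs of the cells summed (CPM), and log2 ratios are Foxq1iECKO over Foxq1flox/flox. A gene is called higher or lower by size where it changed at least 1.5 times that way and the interval left out a ratio of 1. The libraries held 76580165 and 72445925 UMIs, and 270 barcodes occurred in both, none of them gated in both. Gated cells held a median of 5723.5 UMIs in Foxq1flox/flox and 4775.5 in Foxq1iECKO, and 1657177 and 1216731 UMIs in all. Their median mitochondrial share was 6.93% and 6.99%. In endothelial-gated cells Foxq1 stood at 470 CPM in Foxq1flox/flox and 268 CPM in Foxq1iECKO, although a 3′ tag need not lie in the deleted part and so does not check the deletion.

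Monocytes and neutrophils are short-lived blood leukocytes that descend from progenitors of the yolk sac and fetal liver in the embryo. Progenitors first make primary granule proteins such as myeloperoxidase and the serine proteases elastase, proteinase 3 and cathepsin G. Maturing neutrophils then make the secondary granule proteins and the calcium-binding pair S100a8 and S100a9, while monocytes carry the chemokine receptor Ccr2 and the surface protein Ly6C. The transcription factor PU.1, the product of Spi1, binds GGAA-containing sites in many myeloid promoters, and GATA factors bind GATA sites in mast cell genes.

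Promoter sequences of 5 genes that separated the kinds of gated cells are printed here, from RefSeq on build GRCm38.p6 (mm10), 250 bases before to 50 bases after the annotated start. Capitals mark AGGAAGT, a sequence of the kind bound by PU.1 and other ETS factors, or AGATAA, of the kind bound by GATA factors, on either strand. Both motifs were picked after these sequences had been read. AGGAAGT lay in 9.35% and AGATAA in 11.2% of all 32851 promoter windows of the same length, and they share no letters in the windows shown. A further motif, TTGCNNAA (N is any base), of the kind bound by C/EBP factors, was counted too and lay in 10.8% of windows. It was in none of the 5 windows printed and 1 time in that of S100a9.
Mpo, chr11:87793534-87793833, plus strand: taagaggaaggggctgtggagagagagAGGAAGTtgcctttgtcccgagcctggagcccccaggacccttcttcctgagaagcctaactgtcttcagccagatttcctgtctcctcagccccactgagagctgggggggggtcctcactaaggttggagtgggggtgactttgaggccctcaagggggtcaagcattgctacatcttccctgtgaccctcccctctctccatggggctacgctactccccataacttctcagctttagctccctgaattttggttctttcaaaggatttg
Elane, chr10:79886062-79886361, plus strand: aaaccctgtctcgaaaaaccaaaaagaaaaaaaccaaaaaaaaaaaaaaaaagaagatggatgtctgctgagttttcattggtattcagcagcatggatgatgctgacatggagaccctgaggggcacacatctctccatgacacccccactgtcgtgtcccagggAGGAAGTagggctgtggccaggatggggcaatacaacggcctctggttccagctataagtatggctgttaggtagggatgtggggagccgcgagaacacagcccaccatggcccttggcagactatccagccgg
Prtn3, chr10:79879417-79879716, plus strand: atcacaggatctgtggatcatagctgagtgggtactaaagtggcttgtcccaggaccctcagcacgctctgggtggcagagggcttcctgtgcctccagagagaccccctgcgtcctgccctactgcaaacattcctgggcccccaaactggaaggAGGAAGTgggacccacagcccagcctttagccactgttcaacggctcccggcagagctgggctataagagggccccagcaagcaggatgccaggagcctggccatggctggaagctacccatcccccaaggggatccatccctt
S100a8, chr3:90668821-90669120, plus strand: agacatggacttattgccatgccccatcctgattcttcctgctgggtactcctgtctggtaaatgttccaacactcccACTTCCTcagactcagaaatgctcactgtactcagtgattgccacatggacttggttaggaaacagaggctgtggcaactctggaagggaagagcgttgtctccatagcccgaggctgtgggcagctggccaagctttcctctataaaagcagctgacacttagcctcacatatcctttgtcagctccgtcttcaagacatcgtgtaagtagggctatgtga
Cpa3, chr3:20242132-20242431, minus strand: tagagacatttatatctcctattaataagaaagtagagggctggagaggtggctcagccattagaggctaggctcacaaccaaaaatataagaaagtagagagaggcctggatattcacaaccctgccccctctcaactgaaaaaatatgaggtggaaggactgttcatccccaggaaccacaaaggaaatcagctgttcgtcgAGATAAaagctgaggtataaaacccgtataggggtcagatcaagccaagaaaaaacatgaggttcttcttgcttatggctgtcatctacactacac
Mpo, Elane, Prtn3 and S100a8 each held AGGAAGT 1 time and no AGATAA, and Cpa3, the mast cell carboxypeptidase, held AGATAA 1 time and no AGGAAGT. Of the genes of the gate not printed, Ly6c2 held AGGAAGT 2 times, and Ccr2 and S100a9 held AGATAA 1 time each. Elane and Prtn3 are neighbours on chromosome 10 (79886247 to 79888215 and 79874476 to 79883174, both plus strand). The gene spans are those of GENCODE, whose starts differ from the RefSeq starts of the windows, and the Prtn3 window lies inside the GENCODE span of Prtn3. S100a8 and S100a9 are neighbours on chromosome 3 (90668978 to 90670035, plus strand, and 90692632 to 90695721, minus strand).

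The gate rested mostly on Ccr2. Ccr2, the receptor that draws monocytes out of the marrow, was detected in 83.3% (78.2 to 87.7) of gated Foxq1flox/flox cells and in 84.6% (79.3 to 89.0) of gated Foxq1iECKO cells. In 188 and 176 cells it was the only detected gene of the 6 that admitted a cell. The cells were chosen by these UMI counts, so the values describe the choice and are no finding. S100a8 was detected in 9.30% and 11.1% of gated cells, S100a9 in 10.9% and 8.97%, Mpo in 12.02% and 9.40%, Ly6c2 in 13.2% and 14.96%, and Elane in 1.94% and 0.855%. Only 1 of the 6 genes was detected in 211 and 193 cells, and a single UMI over all 6 admitted 76 and 86 cells. No cell of the Foxq1iECKO library and 1 cell of the Foxq1flox/flox library held all 6.

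Free RNA was measured in cells that should lack these genes. After each cell was thinned to 2000 UMIs, Ccr2 was seen in 51.4% of 247 gated Foxq1flox/flox cells and in 57.9% of 221 gated Foxq1iECKO cells. The same share was 0.116% and 0.163% of neuron-gated cells and 0.0322% and 0.0964% of fibroblast-gated cells. For S100a8 the thinned shares were 7.29% and 9.05% of gated cells against 0.174% and 0.245% of neuron-gated cells, and for Mpo they were 7.69% and 5.88% against no neuron-gated cell. Unthinned median depths were 5723.5 and 4775.5 UMIs in gated cells and 3263 and 3414 in neuron-gated cells. The gated cells were admitted by these genes, so the gap describes the gate and is no finding.

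Cells lay close to each limit on both sides. With all other conditions met, 29 Foxq1flox/flox and 47 Foxq1iECKO cells had 1 leukocyte gene and stayed outside, while 75 and 92 members had exactly 2. Members with 1 C1q gene numbered 43 and 56, and 39 and 54 cells with 2 stayed outside. Members with 1 endothelial gene numbered 110 and 77, and 24 and 27 cells with 2 stayed outside.

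Clustering split the gated cells into 9 subclusters, and most of them did not carry the defining genes of monocytes, neutrophils or myeloid progenitors. Subclusters were given names of the form X-like from marker lists, and their leading genes are described without a test because the same genes made the clusters. The monocyte-like, myeloid progenitor-like and neutrophil-like subclusters together are the 3 that go with the label; the other 6 were led by genes of mast cells or basophils, dendritic cells, macrophages, lymphoid cells or connective tissue. The set is therefore called by its rule in what follows, as gated cells.

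**Figure D1:**
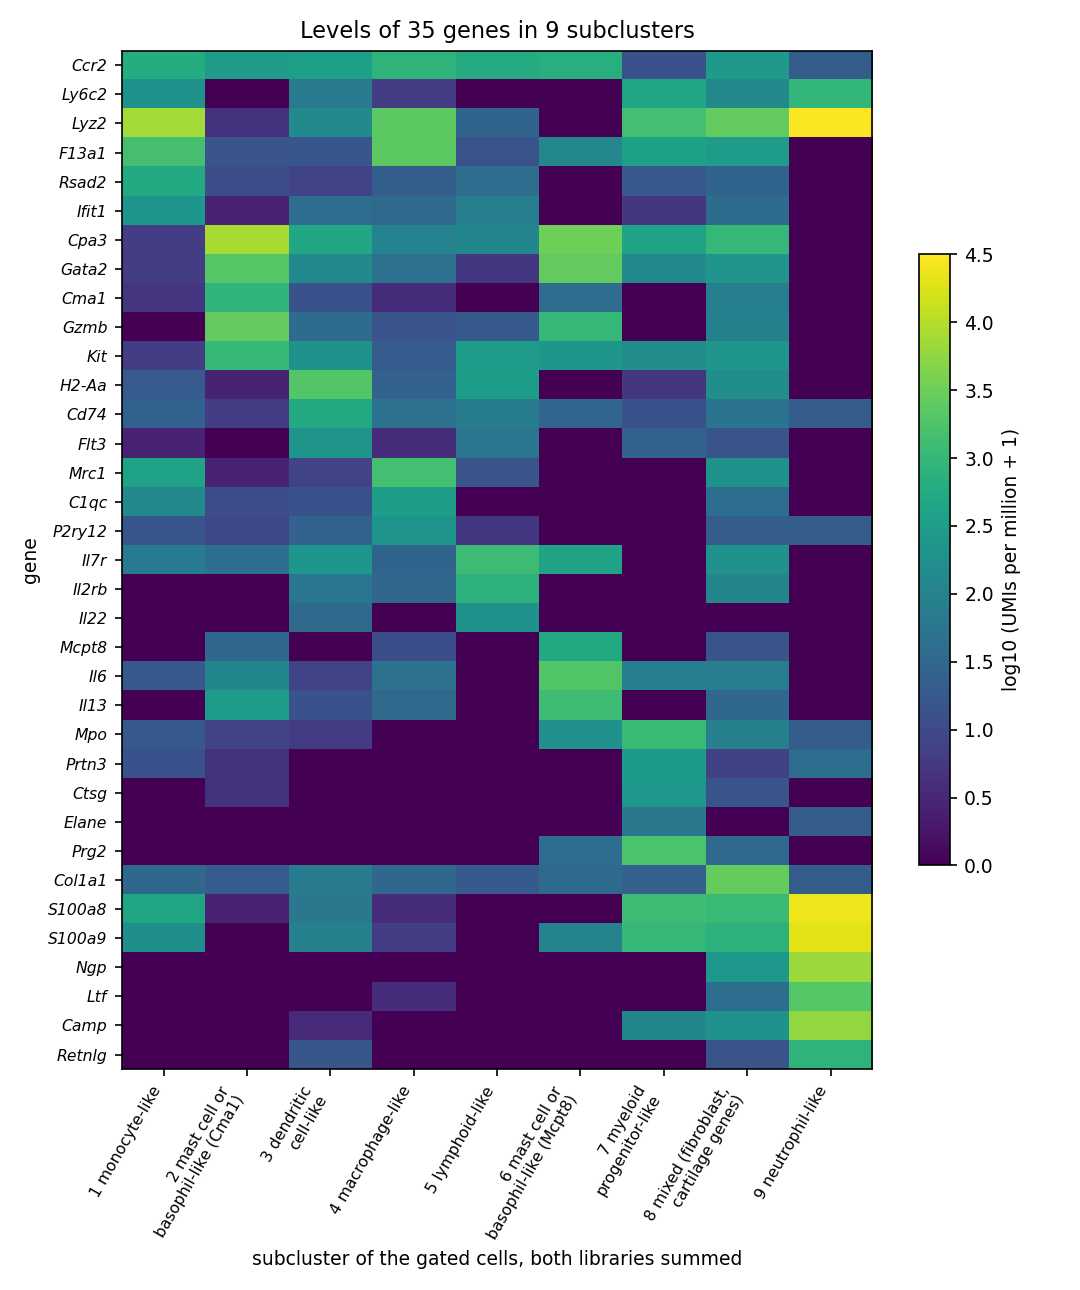
Levels of 35 genes (rows) in the 9 subclusters (columns), both libraries summed, as log10 of CPM plus 1. Ngp, Ltf, Camp and Retnlg are bright in subcluster 9, Mpo, Prtn3, Ctsg and Prg2 in subcluster 7, Cpa3 and Gata2 in subclusters 2 and 6, and Ccr2 in every column except 7 and 9.

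The smallest subcluster was neutrophil-like and held 17 cells, 8 from Foxq1flox/flox and 9 from Foxq1iECKO. All 17 held S100a8 and S100a9, whose products form calprotectin, at 24124 CPM (22767 to 25541) and 20772 CPM (19514 to 22089). Ngp, a neutrophil granule protein, stood at 6726 CPM, Camp, the cathelicidin, at 5888 CPM, Ltf, lactoferrin, at 2044 CPM, and Retnlg at 838 CPM (602 to 1137). Of 18 neutrophil markers, 15 were at least 2-fold above the other gated cells. Apart from lysozyme, primary granule genes were nearly absent there: Mpo and Elane had 1 UMI each and Ctsg none, with an interval that reached 75.4 CPM. These cells were shallow, with a median of 2392 UMIs, and 11 of them held Mki67, a gene of dividing cells.

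The myeloid progenitor-like subcluster held 33 cells, 22 from Foxq1flox/flox and 11 from Foxq1iECKO, at a median of 7599 UMIs. Mpo was detected in 27 of them and stood at 1062 CPM (936 to 1200), with 1064 CPM in Foxq1flox/flox and 1056 CPM in Foxq1iECKO. Prtn3 stood at 285 CPM (222 to 361), Ctsg at 252 CPM (193 to 324) and Elane at 62.0 CPM (34.7 to 102). Of 14 myeloid progenitor markers 11 were at least 2-fold above the other gated cells. Among the 10 leading genes 4 belonged to this list and 4 to eosinophils: Prg2, the major basic protein, and the ribonucleases Ear1, Ear2 and Ear6. Prg2 lay in 8 of the 33 cells, at 2196 CPM in Foxq1flox/flox and 679 CPM in Foxq1iECKO. Of the 7 gated Foxq1flox/flox cells with Prg2, 2 also held Mpo and 5 did not. Ccr2 was detected in 2 of the 33 cells.

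The monocyte-like subcluster held 89 cells (39 and 50) and was the largest. Lyz2, lysozyme M, was detected in all 89 cells at 7614 CPM (7384 to 7849), and F13a1, a coagulation factor of monocytes and macrophages, in 76 cells at 1512 CPM. Ly6c2 was detected in 23 of them, at 204 CPM (168 to 246). The leading genes were those of the interferon response and of chemokines, with Rsad2, an antiviral enzyme, at 574 CPM and Ifit1 at 228 CPM. Rsad2 was detected in 15 of the 89 cells. Of 15 monocyte markers 5 were at least 2-fold above the other gated cells, and none was among the 10 leading genes. C1qc, which at most 1 C1q gene per cell allowed, was seen in 32 of these cells.

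The macrophage-like subcluster held 67 cells (26 and 41). Mrc1, the mannose receptor of perivascular macrophages, stood at 1430 CPM (1310 to 1558), P2ry12, a microglial receptor, at 216 CPM and C1qc at 338 CPM. Of 20 macrophage markers 10 were at least 2-fold above the other gated cells, along with Ccr2 at 860 CPM (767 to 960), its highest level in any subcluster. Ly6c2 was detected in 2 of these cells and S100a8 in 1.

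Mast cell or basophil genes led subclusters 2 and 6. Subcluster 2 held 84 cells (49 and 35), with Cpa3 in 83 of them at 8100 CPM (7869 to 8336), Gata2 in all 84 at 2036 CPM, Cma1, mast cell chymase, at 863 CPM and Gzmb, granzyme B, at 2615 CPM. Kit, the stem cell factor receptor kept by mast cells, stood at 1034 CPM. Subcluster 6 held 42 cells (26 and 16), with Gata2 at 2589 CPM and Mcpt8, a basophil protease, at 545 CPM (441 to 667) against 29.5 CPM in subcluster 2. Cytokine genes were high in subcluster 6: Il6 at 1912 CPM (1712 to 2128), Il13 at 1269 CPM, Osm at 499 CPM and the growth factor Hgf at 545 CPM. Cpa3 and Ccr2 were seen together in 83 of 92 Foxq1flox/flox cells with Cpa3 and in 61 of 68 Foxq1iECKO cells. Neuron-gated cells gave a Cpa3 share of 1.56% and 1.47% after thinning, against 33.6% and 26.2% of gated cells. The share was 22.8% and 21.02% of leukocytes with none of the 6 genes, so Cpa3 was not particular to the gate.

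The lymphoid-like subcluster held 49 cells (30 and 19). Il7r, the interleukin 7 receptor, stood at 1224 CPM (1083 to 1377), Il2rb at 783 CPM (672 to 908) and Il22 at 205 CPM (150 to 273). Cd3e, a T cell receptor component, had no UMI in them, with an interval that reached 16.4 CPM. Other T cell genes were among the leading genes: Tcf7 at 623 CPM, the T cell receptor gene Trbc1 at 325 CPM and Cd4 at 174 CPM. The dendritic cell-like subcluster held 79 cells (42 and 37). The class II gene H2-Aa stood at 2008 CPM (1872 to 2151), Cd74 at 530 CPM and Flt3 at 213 CPM, and 5 neuron markers were also at least 2-fold above the other gated cells there. Subcluster 8 (16 and 16 cells) was led by the collagens Col1a1 and Col1a2 and carried all 6 cartilage markers. Of its 32 cells 16 were predicted doublets, and it is called mixed here.

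Marker lists of other cell types were summed over the gated cells. The endothelial list holds genes that the gate itself limits, so its level was set in part by the rule. Summed over each list, 12 endothelial markers made up 123 CPM in Foxq1flox/flox and 112 CPM in Foxq1iECKO, and 10 neuron markers 166 and 85.5 CPM. The 9 fibroblast markers made up 867 and 1197 CPM, and the 6 cartilage markers 434 and 113 CPM. The lymphoid list made up 715 and 591 CPM, although its genes Cd3e, Cd3d and Rag1 had no UMI in either library. The 18 neutrophil markers summed to 1626 and 2404 CPM and the 14 myeloid progenitor markers to 1711 and 1438 CPM, but these lists hold genes that admitted the cells.

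Clusters made from genes that differ between the libraries cannot be compared in size, so the cells were clustered again without the genes called higher or lower. That clustering gave 8 clusters and joined neighbouring subclusters. A cluster made up of 31 progenitor-like, 16 neutrophil-like and 7 other cells was 12.02% (8.31 to 16.6) of gated Foxq1flox/flox cells and 9.83% (6.33 to 14.4) of gated Foxq1iECKO cells. A cluster of 82 monocyte-like, 30 macrophage-like and 2 other cells was 19.8% (15.1 to 25.2) and 26.9% (21.4 to 33.1). A cluster of 36 macrophage-like cells was 4.65% (2.43 to 7.98) and 10.3% (6.68 to 14.9). The intervals of all 8 pairs of shares overlapped.

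**Figure D2:**
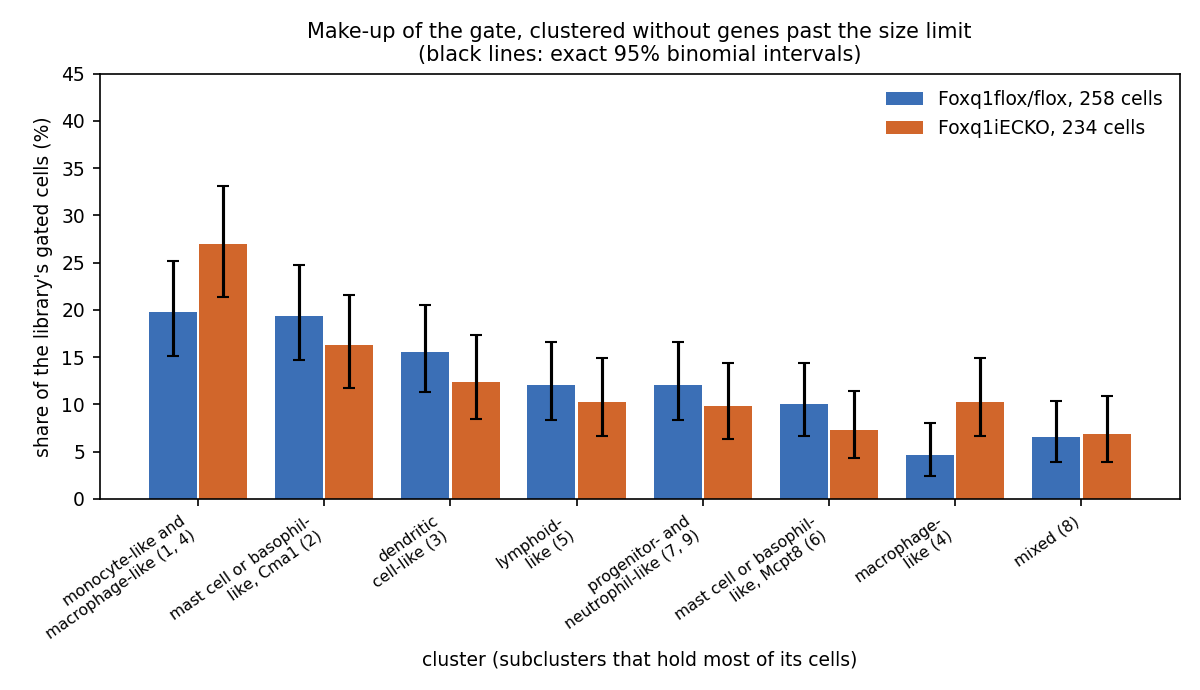
Share of each library's gated cells (vertical axis, %) in the 8 clusters made without genes past the size limit. Bars are the 2 libraries and black lines exact 95% binomial intervals, which overlap in every pair; the macrophage-like cluster stood at 4.65% and 10.3%.

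The gated cells as a whole took 1.85% (1.63 to 2.09) of Foxq1flox/flox and 1.79% (1.57 to 2.03) of Foxq1iECKO cells past the quality filter. The difference lay inside the counting intervals. The CD31 selection can set such shares. When every cell was thinned to 2000 UMIs before the gate, 135 of 12357 and 134 of 11421 cells remained, or 1.09% and 1.17%.

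Between the genotypes, genes of the immediate early and interferon responses were higher in the gated cells of the Foxq1iECKO library, and among the 12 lowest genes were the eosinophil genes Ear6 and Prg2. Both of these rested on few cells and changed sign without cells that held a C1q or endothelial gene. Summed over all gated cells, 6946 genes reached 20 CPM in at least 1 library. Of these 3.92% were higher and 3.74% lower in Foxq1iECKO by size, 272 and 260 genes.

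**Figure D3:**
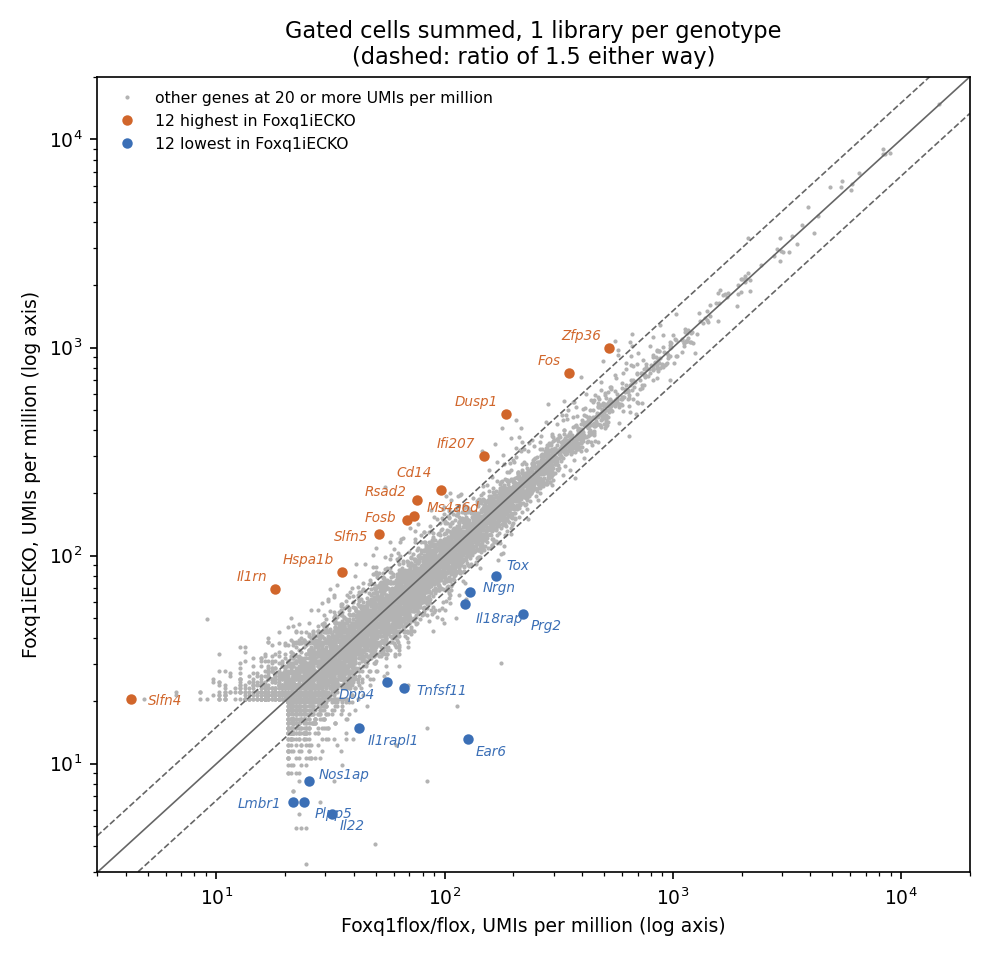
CPM of each gene at 20 or more CPM in the gated cells of Foxq1flox/flox (horizontal) and Foxq1iECKO (vertical), on log axes. The 12 genes highest and the 12 lowest in Foxq1iECKO lie outside the dashed lines, which mark a ratio of 1.5 either way; genes at 0 in a library are not drawn.

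Immediate early genes, which respond to stimuli and to cell handling within minutes, were higher. Of 22 measured members of this list of immediate early and stress genes 11 were higher by size and none lower, with a median log2 ratio of 0.60. Over all 8917 genes at 10 or more CPM, 3.84% were higher and 4.37% lower, and the median was -0.05. Fos, a transcription factor subunit, had 581 UMIs (351 CPM) in Foxq1flox/flox and 916 UMIs (753 CPM) in Foxq1iECKO, a log2 ratio of 1.10 (0.95 to 1.26). It was detected in 44.2% of Foxq1flox/flox and 56.8% of Foxq1iECKO gated cells, and no cell held more than 7.97% of its UMIs. Dusp1, a phosphatase that ends MAP kinase signals, stood at 186 and 480 CPM, a log2 ratio of 1.37 (1.17 to 1.57). For Zfp36, which speeds the decay of cytokine messages, levels were 527 and 994 CPM (0.92, interval 0.79 to 1.04). The heat shock gene Hspa1a stood at 54.9 and 214 CPM (1.96, interval 1.61 to 2.32), with 71.9% of its Foxq1iECKO UMIs in the macrophage-like subcluster. Gated cells of the Foxq1iECKO library were the shallower ones, and with every cell thinned to 1000 UMIs the list median was 0.50.

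The immediate early difference was seen inside several subclusters. List medians were 0.34 in monocyte-like, 0.67 in Cma1 mast cell or basophil-like, 0.86 in dendritic cell-like, 1.00 in macrophage-like and 0.32 in Mcpt8 mast cell or basophil-like cells. In lymphoid-like cells the median was -0.40 and Fos went the other way, at 463 CPM in Foxq1flox/flox and 159 CPM in Foxq1iECKO (-1.54, interval -2.56 to -0.65). Monocyte-like cells had 1 of 21 measured members higher by size, where 3.70% of 6657 genes at 20 or more CPM were higher and 3.23% lower. Macrophage-like cells had 13 of 22, where 3.39% of 6586 such genes were higher and 3.55% lower. Dusp1 in monocyte-like cells stood at 271 and 285 CPM, a log2 ratio of 0.07 (-0.41 to 0.55), against 507 and 1185 CPM in macrophage-like cells (1.22, interval 0.86 to 1.60). The difference between subclusters was not tested. Subclusters 7 and 9 held too few cells for such ratios.

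Interferon response genes were higher by size for 9 of 23 measured members and lower for none, with a median of 0.54. Of all 8917 genes at 10 or more CPM, 3.84% were higher and 4.37% lower. Rsad2 stood at 75.4 and 185 CPM (1.29, interval 0.97 to 1.62), yet 1 cell held 50 of its 125 Foxq1flox/flox UMIs and another 73 of its 225 Foxq1iECKO UMIs. Ifit3, which binds viral RNA complexes with Ifit1, had 15 UMIs in 8 cells and 60 UMIs in 15 cells (2.45, interval 1.61 to 3.37). Oasl2 had 52 and 84 UMIs (1.14, interval 0.62 to 1.67), and Slfn5, an interferon-induced gene outside the list, 85 and 154 (1.30, interval 0.91 to 1.70). Of the Foxq1iECKO UMIs of Rsad2, 92.9% lay in the monocyte-like subcluster, where levels were 382 and 763 CPM (1.00, interval 0.65 to 1.35). Interferon medians within subclusters ran from -0.64 in dendritic cell-like cells, with none of 19 members higher and 2 lower (3.98% and 4.65% of its genes), to 1.98 in lymphoid-like cells, with 2 of 20 higher and 1 lower (3.36% and 2.33%). Counts in lymphoid-like cells were small, with 75588 UMIs in all in the 19 Foxq1iECKO cells, so this median was imprecise. Rsad2 had 6 and 3 UMIs in them, Oasl2 2 and 2, Ifit3 0 and 3 and Ifit1 5 and 14. Monocyte-like cells had 7 of 24 higher and none lower (3.70% and 3.23% of its genes at 20 or more CPM), with a median of 0.39. When at least 3 leukocyte genes were required, the list median was 0.08 and the log2 ratio of Rsad2 0.29.

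**Figure D4:**
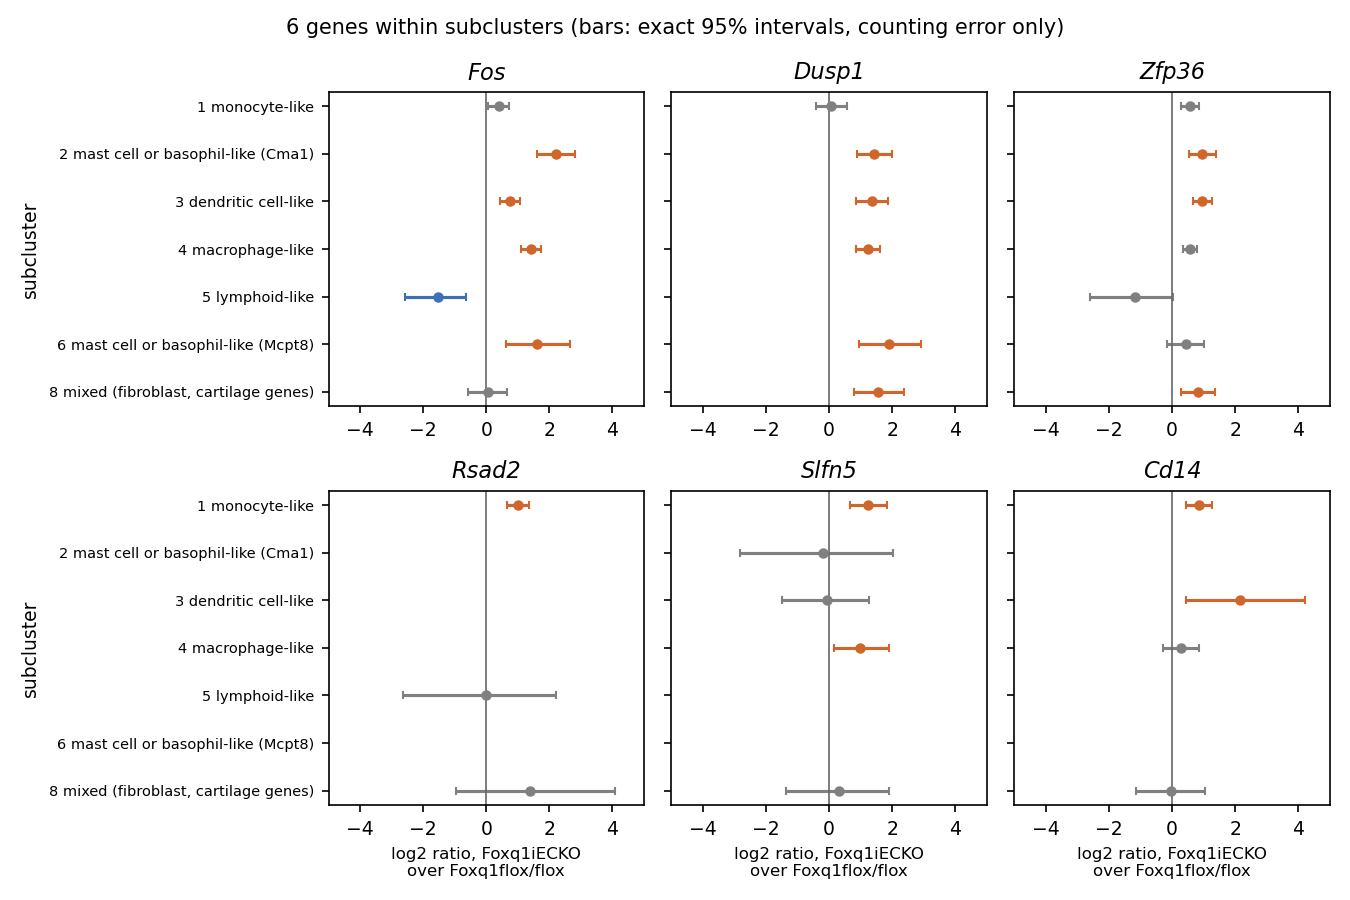
Log2 ratio of 6 genes (panels) within 7 subclusters (rows), with exact 95% intervals for counting error; orange is higher and blue lower by size, and ratios with under 3 UMIs in a library are not drawn. Fos is right of 0 in most rows and left of 0 in the lymphoid-like row, and Rsad2 is past the limit in the monocyte-like row.

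The 2 gates most like this one gave higher interferon genes as well, and few immediate early genes beyond the limit. In cells of the macrophage gate (773 and 903) 18 of 28 interferon genes were higher by size, where 3.78% of 8419 genes were. In leukocytes with none of the 6 genes (802 and 941) it was 17 of 25, where 3.21% of 8813 genes were. The list medians were 0.76 in both. For immediate early genes the counts were 0 of 22 and 2 of 22, with medians of -0.07 and 0.19. Fos stood at 895 and 895 CPM in macrophage-gated cells and at 524 and 603 CPM in the other leukocytes. Higher interferon values were not particular to leukocytes. The interferon median was 0.60 in fibroblast-gated, 0.41 in endothelial-gated and 0.09 in neuron-gated cells, the last with 3 genes measured. Medians of all genes there were -0.03, -0.03 and -0.04. No test of these differences between gates was possible with 1 library per genotype.

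Innate sensing genes followed the same direction. Of 32 measured NADPH oxidase, pattern recognition and Fc receptor genes, 9 were higher by size and none lower, with a median of 0.33, where 3.84% of all 8917 genes were higher and 4.37% lower. Cd14, the lipopolysaccharide co-receptor, had 159 UMIs (95.9 CPM) in 52 Foxq1flox/flox cells and 252 UMIs (207 CPM) in 73 Foxq1iECKO cells, a log2 ratio of 1.11 (0.82 to 1.41). Tlr4, its signalling partner, had 24 and 39 UMIs (1.15, interval 0.38 to 1.94). Among 34 measured cytokine, chemokine and vessel growth factor genes 11 were higher and none lower, with a median of 0.35. Il1rn, the interleukin 1 receptor antagonist, had 30 UMIs in 17 cells and 84 UMIs in 32 cells, or 18.1 and 69.0 CPM (1.93, interval 1.31 to 2.58). Cxcl2, a chemokine that attracts neutrophils, stood at 86.9 and 166 CPM (0.93, interval 0.62 to 1.25). The macrophage marker list summed to 1338 CPM in Foxq1flox/flox and 1969 CPM in Foxq1iECKO, the monocyte list to 5013 and 7125 CPM, and the mast cell or basophil list to 4033 and 3500 CPM. The monocyte list holds Ly6c2 and Ccr2, which admitted cells, and the macrophage list holds the C1q genes that the gate limits. The levels of these lists were therefore set in part by the rule. Equal weights could be given to subclusters 1 to 4 alone: monocyte-like, Cma1 mast cell or basophil-like, dendritic cell-like and macrophage-like cells. With these weights the cytokine median was 0.05 and that of the sensing genes 0.15, and Tlr4 and Cxcl2 no longer passed the limit.

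Of 16 measured secondary and gelatinase granule genes 8 were higher by size and 2 lower, with a median of 0.74. Of all 8917 genes 3.84% were higher and 4.37% lower. The list median depended on the mixed subcluster, as given with S100a8 below. Lcn2, lipocalin 2, had 22 UMIs in 8 cells and 44 UMIs in 9 cells (1.45, interval 0.68 to 2.25), while Fcnb, ficolin B, had 27 and 5 UMIs (-1.99, interval -3.72 to -0.59). Of 11 measured primary granule genes Lyz2 was higher (2136 and 3343 CPM, a log2 ratio of 0.65) and Prtn3 and Ctsg were lower. Lyz2 kept its call in 7 of 11 alternatives and fell inside the limit without predicted doublets or without the mixed subcluster. Its log2 ratio was 0.31 in monocyte-like and 0.16 in macrophage-like cells, both inside the limit. It was -0.87 in dendritic cell-like cells and 1.98 in the mixed subcluster. Prtn3 had 59 UMIs in 20 cells and 23 UMIs in 13 cells (-0.91, interval -1.68 to -0.20), and Ctsg 51 UMIs in 11 cells and 16 UMIs in 6 cells (-1.23, interval -2.14 to -0.39). With subclusters 1 to 4 weighted equally Ctsg turned to 0.81, Prtn3 stood at -0.16 and the primary granule median at 0.29. These weights leave out the progenitor-like subcluster, so they cannot check the 2 proteases. With at least 3 leukocyte genes neither protease passed the limit. The number of cells behind these genes is small, and 90.2% and 93.8% of Ctsg UMIs came from the progenitor-like subcluster.

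S100a8 had 953 UMIs (575 CPM) in Foxq1flox/flox and 1118 UMIs (919 CPM) in Foxq1iECKO, a log2 ratio of 0.68 (0.55 to 0.80). The mixed subcluster supplied 317 of the Foxq1iECKO UMIs from 3 cells and none of the Foxq1flox/flox UMIs. Without it the log2 ratio was 0.17, inside the limit. Within the neutrophil-like subcluster S100a8 stood at 24590 and 23725 CPM. The secondary granule list had a median of 0.22 without the mixed subcluster. It was 0.06 with subclusters 1 to 4 weighted equally, which leaves out the neutrophil-like subcluster. Of the 6 measured S100 genes S100a8 alone passed the limit, and S100a9 stood at 483 and 685 CPM.

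**Figure D5:**
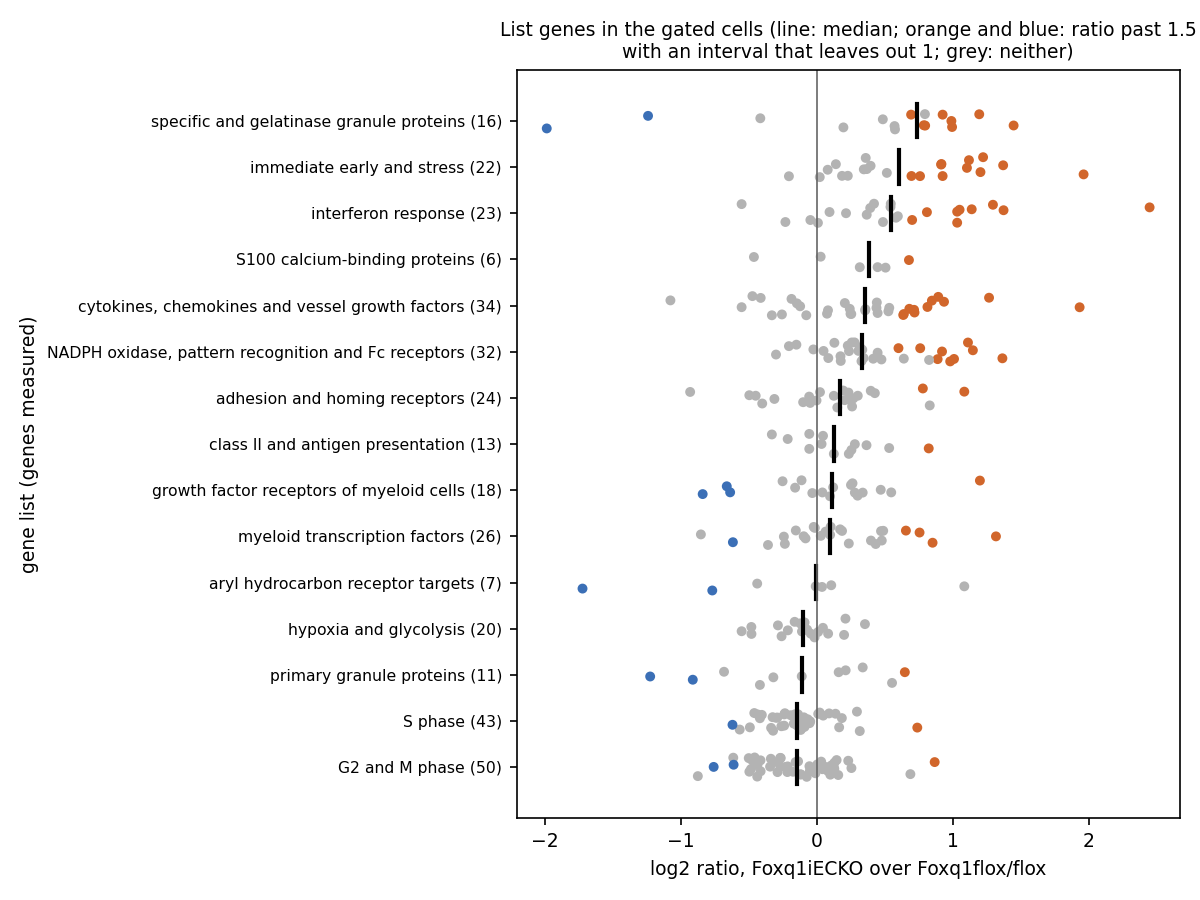
Log2 ratio in the gated cells (horizontal axis) of each measured gene of the 15 lists (rows, with the number measured); black lines are medians, and orange and blue points are higher and lower by size. The immediate early and interferon lists have medians of 0.60 and 0.54 and no blue point, and the hypoxia list has no coloured point.

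Receptors and transcription factors held calls in both directions, where 3.84% of all 8917 genes were higher and 4.37% lower. Csf3r, the receptor for the neutrophil growth factor G-CSF, had 19 and 32 UMIs (1.20, interval 0.33 to 2.10) and was the only one of 18 measured growth factor receptors that was higher. Lower ones were Kit (617 and 286 UMIs, -0.66), Il1r1 (-0.84) and Il1r2 (-0.64). Of 26 transcription factors 4 were higher, led by Klf2 at 73.6 and 183 CPM (1.32, interval 0.99 to 1.65), and 1 was lower. Of 24 measured adhesion and homing receptors 2 were higher, among them Fpr1, a receptor for formylated peptides (0.78, interval 0.01 to 1.56). Fpr1 kept its call in 5 of 11 alternatives and turned to -0.31 with subclusters 1 to 4 weighted equally. Those weights leave out the neutrophil-like subcluster, which held 81.5% and 67.6% of Fpr1 UMIs. Itga4, the alpha chain of the receptor for the endothelial ligand VCAM-1, stood at 1249 and 944 CPM (-0.40), inside the limit. Of 13 class II and antigen presentation genes only Ctss was higher (0.82).

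Cycling and metabolic lists, summed over all gated cells, stayed close to the median of all genes. In S phase 1 of 43 measured genes was higher and 1 lower, in G2 and M phase 1 of 50 was higher and 2 lower, and their medians were -0.14 and -0.15. None of 20 hypoxia and glycolysis genes passed the limit, with log2 ratios between -0.55 and 0.35. Of 7 aryl hydrocarbon receptor targets Cyp1a1 (72 and 31 UMIs, -0.77) and Cyp1b1 (18 and 4 UMIs, -1.72) were lower, where 4.37% of all genes were. Cyp1a1 kept its call in 6 of 11 alternatives and Cyp1b1 in 4 of 10. Mki67 was detected in 61.6% and 58.5% of gated cells. Within subclusters the S phase list varied. In monocyte-like cells 6 of 41 members were lower and none higher (median -0.52), where 3.23% and 3.70% of genes at 20 or more CPM were. In lymphoid-like cells 11 of 41 were lower and none higher (-0.83), where 2.33% and 3.36% were. S phase medians were above 0 in subclusters 2 (0.06), 3 (0.22) and 6 (0.52). These differences were not tested.

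Several of the largest falls rested on few cells. Ear6 had 209 UMIs in 6 Foxq1flox/flox cells and 16 UMIs in 1 Foxq1iECKO cell, and 1 cell held 75.1% of the Foxq1flox/flox UMIs. Prg2 had 364 UMIs in 7 cells and 64 UMIs in 4 cells. Without cells that held a C1q or endothelial gene, the log2 ratio of Ear6 turned from -3.26 to 0.75 and that of Prg2 from -2.06 to 0.21. The lymphoid cytokine gene Il22 had 53 UMIs in 4 cells and 7 UMIs in 2 cells. Tnfsf11, which encodes RANKL and is made by lymphoid tissue inducer cells, was broader, with 110 UMIs in 34 cells and 28 UMIs in 12 cells (-1.53, interval -2.18 to -0.92). Tox, a factor of lymphoid development, had 278 UMIs in 76 cells and 97 UMIs in 46 cells (-1.07, interval -1.42 to -0.73), and 1012 and 476 CPM within the lymphoid-like subcluster. Il18rap, a subunit of the interleukin 18 receptor, had 203 UMIs in 86 cells and 71 UMIs in 40 cells (-1.07, interval -1.48 to -0.67), with 41.4% and 39.4% of them in the Mcpt8 subcluster. Of the other genes among the 12 lowest, Dpp4, a surface peptidase, had 93 UMIs in 57 cells and 30 UMIs in 20 cells, and Nrgn, Il1rapl1, Nos1ap, Plpp5 and Lmbr1 had log2 ratios between -1.88 and -0.96. Leukocytes with none of the 6 genes also had Tnfsf11 (-1.43), Il22 (-2.04), Il18rap (-1.37), Nrgn (-1.84), Dpp4 (-0.92), Tox (-0.81) and Nos1ap (-0.81) lower by size. These falls were therefore not particular to the gate. Il1rapl1, Plpp5 and Lmbr1 stayed inside the limit there, and Ear6 and Prg2 had at most 3 UMIs in a library. Among the 12 highest, Ms4a6d, a membrane protein of monocytes and macrophages, had 122 UMIs in 55 cells and 189 UMIs in 71 cells (1.08), and Ifi207 246 UMIs in 62 cells and 366 UMIs in 87 cells (1.02). Slfn4 had 7 UMIs in 4 cells and 25 UMIs in 8 cells, and its log2 ratio turned from 2.28 to -0.89 with subclusters 1 to 4 weighted equally. The neutrophil-like subcluster, left out there, held 52.0% of its Foxq1iECKO UMIs. Under the same weights Ifi207 (0.47), Ms4a6d (0.52), Tox (-0.28), Nos1ap (-0.96) and Lmbr1 (-0.75) no longer passed the limit. The lymphoid-like subcluster, with 54.3% and 37.1% of Tox UMIs, had no weight there.

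Foxq1 itself had 24 UMIs in 9 gated Foxq1flox/flox cells and 4 UMIs in 4 gated Foxq1iECKO cells, or 14.5 and 3.29 CPM (-2.14, interval -4.13 to -0.60). Of the 24 UMIs 10 came from 1 cell. Neuron-gated cells, taken as the measure of free RNA, gave 10.6 and 6.79 CPM, so the level in gated cells was near that background.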

How the data were processed

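The deposited files hold UMI counts per gene and barcode, 1 matrix per library; per the submitters' processing notes fastp 0.24.0, STARsolo 2.7.11b and build mm10 were used, and other settings are not given there. Both libraries were labelled as endothelial cells. The gated cells and gene lists were chosen with earlier results of these data known. Counts were summed over the gated cells of each library and scaled to CPM. Named genes were those of the gate, the 12 highest and 12 lowest by the interval limit nearest to 0, up to 4 per list, leading genes and Foxq1. Doublets were predicted with Scrublet and kept, apart from 1 alternative. Clustering used scanpy 1.11.5 and leidenalg 0.10.2. A name needed at least 3 markers. The size rule was tested on simulated Poisson counts with known ratios. These held no clumping of UMIs in single cells, so they do not check genes that rested on few cells. Scaling alternatives came from edgeR 4.0.16 (TMM) and DESeq2 1.42.0 (size factors); no count model was fitted. Promoters came from RefSeq, gene positions from GENCODE. Values of a few genes are not reported here.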

Additional observations from a re-analysis of the deposited data

Results flagged for a closer look

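Barcodes below the quality filter were outside the comparisons, and some carried neutrophil transcripts. At least 10 UMIs of S100a8 and S100a9 together were found in 1 such barcode of the Foxq1flox/flox library and in 5 of the Foxq1iECKO library, all of them under 1000 UMIs or 500 genes. Past the filter, 25 and 18 gated cells held as many, and so did 5 and 14 cells outside the gate. Of the latter, 2 and 9 had under 2 leukocyte genes.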

How the results depend on the processing

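The share of gated cells, in Foxq1flox/flox and Foxq1iECKO, was 1.31% and 1.08% with at least 3 leukocyte genes, 1.31% and 1.13% with at least 2 UMIs over the 6 genes, 0.890% and 0.885% with no C1q and no endothelial gene, and 1.09% and 1.17% when gated after thinning to 2000 UMIs. Without a filter on low values 414 genes were higher and 513 lower. Scaling by the median of ratios or by TMM shifted all log2 ratios by 0.04. Some log2 ratios changed sign. The class II list median was -0.16 with at least 2 UMIs. With no C1q and no endothelial gene, Ear6 was at 0.75, Prg2 at 0.21, the S100 median at -0.011 and the S phase median at 0.056. The aryl hydrocarbon receptor target median was 0.0057 at 10% or less mitochondrial UMIs, 0.045 without doublets, 0.030 by the median of ratios, 0.027 by TMM and 0.049 with equal weights. The transcription factor median was -0.001 without doublets. Only subclusters 1 to 4 could be weighted equally, so the progenitor-like and neutrophil-like ones were left out. With these weights Slfn4 was at -0.89, Ctsg at 0.81, Fpr1 at -0.31, the primary granule median at 0.29 and the S100 median at -0.032. With every cell thinned to 1000 UMIs, an alternative chosen after seeing the data, as were leaving out the mixed subcluster and clustering without genes past the limit, Hspa1b was at -0.029, Clec4n at -0.082, the S100 median at -0.10 and the adhesion median at -0.14. The cause was not tested. Of the values for single genes and lists 896 were counted as the same, 111 fell inside the limit and 21 were counted as reversed. Another 7 passed the limit from inside, and 1 list median moved further. For a gene, the same meant an unchanged call, so a gene inside the limit could change sign and still count. For a list it meant a median that moved no more than the median half-width of its genes' intervals. The same sign was asked only of lists with a gene called higher or lower. By this rule a fall of the interferon median from 0.54 to 0.08 counted as the same. Of the list genes beyond the size limit, 19 of 39 kept their call with equal weights, 27 of 42 with no C1q and no endothelial gene, and 15 of 40 with every cell thinned to 1000 UMIs. The immediate early median stayed between 0.50 and 0.74 over the 11 alternatives run on it. Alternatives that left a library at 0 UMIs gave no value. No paired analysis was possible because there was 1 library per genotype.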
